A study of Homo sapiens with 4 samples.

Results

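The genes described here are 9 regulators of the G1 phase of the cell cycle and of the p53 response: the CDK inhibitor genes CDKN1A, CDKN1B and CDKN2C, the cyclin genes CCND1, CCND3 and CCNE1, the kinase gene CDK6, and the p53 target genes TP53I3 and MDM2. They were chosen by name, and all 9 had a row among the 15279 named genes of the deposited table. RNA-seq had been made from cultures of MDA-MB-231, a triple-negative human breast cancer line (labelled MDA231-P, called parental below), and of MDA-MB-231Br (labelled MDA231-BR and as a brain metastasis), each represented by 2 libraries, named P-A and P-B (parental) and BR-A and BR-B (brain metastatic) in column order. Both lines were grown untreated, as far as the labels say, in DMEM with 10% fetal bovine serum. Each group is a single cell line, the labels do not say how the brain metastatic line was derived, and they do not say that libraries came from separate cultures, so a p-value reflects how far these libraries differ from each other, a spread that may be technical.

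Cells leave G1 when cyclin D with CDK4 or CDK6, and then cyclin E with CDK2, phosphorylate the retinoblastoma protein RB1 and free E2F transcription factors, which switch on genes of DNA replication. INK4 inhibitors such as p18 (CDKN2C) bind CDK4 and CDK6 alone, whereas CIP/KIP inhibitors such as p21 (CDKN1A) and p27 (CDKN1B) bind whole cyclin-CDK complexes. CDKN1A is the classical target of p53 in growth arrest, TP53I3 a p53-induced quinone oxidoreductase gene, and MDM2 the p53-induced ubiquitin ligase that destroys p53. MDA-MB-231 is known to lack the CDKN2A gene, and CDKN1A is known to respond also to factors other than p53.

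The libraries held 25835225 to 30771290 reads in named genes. All 9 genes passed the filter on low counts, with between 177 reads (TP53I3 in P-B) and 24678 reads (CCND1 in P-A). The labelled cell type fitted its markers in part: VIM, CD44, AXL, CAV1, EGFR, ITGB1, MSN and ZEB1 each had 3389.7 or more normalized counts (reads divided by a size factor of the library, as deposited) in every library, and CDH1 and ESRP1 14.8 or fewer. Of the 8 markers with high counts, 2 were called higher in the brain metastatic line (25%, against 8.61% of all tested genes). CAV1 was called lower (log2 fold change -1.43, adjusted p = 0.00523), 12.5% of the 8 against 5.80% of all tested genes. ESR1, the oestrogen receptor gene, had 0 and 1.94 in the parental libraries, 6.72 in BR-A and 26.5 in BR-B (25 reads), too few to be tested, while ERBB2 (955 to 1239) and GATA3 (227 to 301) were not absent. Fibroblast and immune markers (PDGFRA, DCN, LUM, COL1A2, COL3A1, PTPRC, CD14, CD3E and AIF1) had no row and were not analysed here. Of brain cell markers, 4 were tested and 0 called: the neuronal SYT1 (log2 fold change 1.31, adjusted p = 0.0791), the myelin gene MBP (0.67, adjusted p = 0.075) and the astrocyte genes SLC1A3 (-1.16, adjusted p = 0.0918) and ALDH1L1 (0.67, adjusted p = 0.38). At an unadjusted p below 0.05, SYT1 and MBP were higher and SLC1A3 lower. Without BR-A the neuronal and the myelin marker were called higher, and without BR-B 1 astrocyte marker lower. Of 4 endothelial markers, 2 were tested and 1 called higher (50%, against 8.61% of all tested genes). This was the receptor gene KDR, which rose from 53.8 and 77.6 in parental to 519.5 and 603 in brain metastatic cells (log2 fold change 3.10, adjusted p = 0.00112). The other tested endothelial marker had a log2 fold change of 1.00 and was not called. Of 4 tested luminal epithelial markers, 0 were called (log2 fold changes from -1.33 to 0.35). The part of these markers in the results below was not tested. CDKN2A had 1 read in P-B and 0 in the other libraries, and CDKN2B 0 in all 4, where a count of 0 allows a level of up to 0.0975 to 0.116 CPM (a scale on which each library has the same total). Library BR-B stood apart. In 13 interferon-stimulated genes with a row the summed level was 3071 CPM there, against 433 in BR-A and 512 and 553 in the parental libraries. In 13 stress response genes it was 5998 CPM there and 1521 to 1700 in the other libraries. Most of this was the chaperone gene HSPA5 (5171 CPM in BR-B), without which the other 12 genes summed to 827 CPM in BR-B, 658 in BR-A and 536 and 648 in the parental libraries. In 15 mitochondrial pseudogenes the sum was 1705 CPM in BR-B against 425 to 483. The values of the 9 genes and the medians of the gene lists below are therefore also given for each brain metastatic library. The list medians per library are set against the parental mean.

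CDKN1A and TP53I3 were higher in the brain metastatic line, each by about 3 times, and the other 7 genes did not pass the test. Tested with limma-trend on log2(value + 1) over 14424 genes, with Benjamini-Hochberg adjustment, 2 of the 9 genes rose and 0 fell at an adjusted p below 0.05 (at an unadjusted p below 0.05, also 2 and 0), a share of 22.2% higher against 8.61% of all tested genes higher and 5.80% lower (14.4% in either direction). At an unadjusted p below 0.05, 2467 of the 14424 tested genes were higher and 2123 lower. The 2 libraries of a line lay wholly above those of the other for 4 of the 9 genes (CDKN1A, CDKN2C, TP53I3 and MDM2), all higher in brain metastatic cells. That share has a large background, since 61.3% of tested genes did not overlap, 31.7% higher and 29.7% lower. The median log2 fold change of the 9 genes was 0.16 (all tested genes, 0.01). It was 0.23 in BR-A and 0.10 in BR-B, each set against the parental mean. Without P-A or without P-B, only CDKN1A was called. Leaving out a library moved the background for every list below: 19.8% of all tested genes were higher and 16.7% lower without BR-A, 11.6% and 10.2% without BR-B, 2.15% and 0.770% without P-A, and 2.46% and 0.513% without P-B. In bulk RNA, a change in the share of cells expressing a gene and a change in RNA per cell cannot be told apart.

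**Figure D1:**
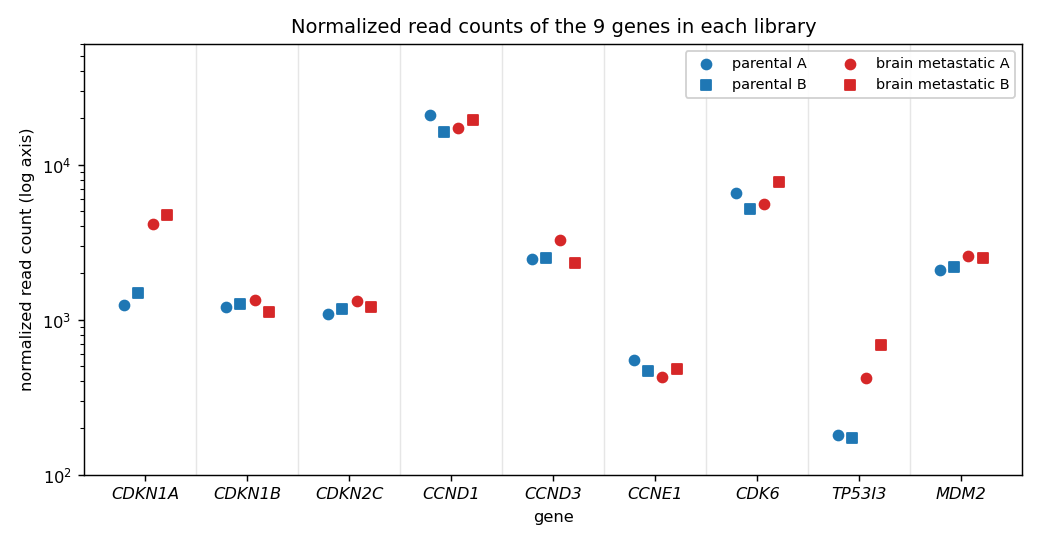
Normalized read count (vertical log axis) of each of the 9 genes in the 4 libraries, parental in blue and brain metastatic in red. CDKN1A and TP53I3 have both red points well above both blue points, whereas the points of CDKN1B, CCND1, CCND3, CCNE1 and CDK6 interleave.

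The promoter windows of the p53 target genes are shown because CDKN1A and TP53I3 rose while MDM2 did not pass. They run from 250 bases before to 50 bases after the transcription start, 5′ to 3′, as RefSeq gives them for GRCh38.p14. The submitters' processing notes name GRCh37, to which these coordinates do not apply. Capitals mark GGGCGG, the core of the SP1 site, in CDKN1A (chr6:36678464-36678763, plus strand), nothing in TP53I3 (chr2:24084785-24085084, minus strand), and a match to the p53 response element in the downstream MDM2 window (chr12:68808767-68809066, plus strand), whose 1 copy of GGGCGG, 149 bases before the start, is left in lower case.
CDKN1A: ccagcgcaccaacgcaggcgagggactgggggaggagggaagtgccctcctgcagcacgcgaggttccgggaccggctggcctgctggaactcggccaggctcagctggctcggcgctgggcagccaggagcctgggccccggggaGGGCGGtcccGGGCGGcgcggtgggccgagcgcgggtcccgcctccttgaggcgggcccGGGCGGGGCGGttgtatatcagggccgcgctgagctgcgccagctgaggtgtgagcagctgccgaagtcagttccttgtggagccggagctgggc
TP53I3: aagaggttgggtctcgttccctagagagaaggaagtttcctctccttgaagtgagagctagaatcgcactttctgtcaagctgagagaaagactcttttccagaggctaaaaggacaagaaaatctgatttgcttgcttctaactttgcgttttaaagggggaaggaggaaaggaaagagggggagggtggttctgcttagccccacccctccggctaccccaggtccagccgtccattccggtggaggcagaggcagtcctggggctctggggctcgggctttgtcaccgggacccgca
MDM2: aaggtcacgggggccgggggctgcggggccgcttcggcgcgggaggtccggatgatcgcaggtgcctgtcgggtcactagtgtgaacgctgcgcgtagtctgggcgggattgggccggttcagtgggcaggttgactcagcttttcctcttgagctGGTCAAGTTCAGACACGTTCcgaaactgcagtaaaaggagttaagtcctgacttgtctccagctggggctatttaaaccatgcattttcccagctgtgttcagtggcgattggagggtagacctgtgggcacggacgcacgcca

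The CDKN1A window held GGGCGG 4 times, starting 104, 94, 45 and 40 bases before the transcription start, the last pair sharing a base. At least 4 copies on either strand occurred in 9.04% of 34796 RefSeq windows of the same length. A p53 response element was searched as a pair of adjoining 10-base elements with at most 2 mismatches and none at the fixed C and G of each element, a pattern that reads alike on both strands. It occurred in 0.287% of those windows and, among the 16 windows of 8 of the genes, only in the pair of overlapping downstream MDM2 windows, at 94 to 75 bases before the start in the window printed, with 2 mismatches. These are descriptions of letters in a short window: the CDKN1A and TP53I3 windows had no match under that rule. Sites outside the windows, or with a spacer between the 10-base elements, were not searched. The lack of a match therefore does not show that CDKN1A or TP53I3 lacks a p53 site. CCND1 had no entry.

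CDKN1A encodes p21, which inhibits CDK2 complexes and also helps to assemble cyclin D with CDK4 or CDK6. Its normalized counts were 1239 and 1483 in the parental libraries and 4125 and 4707 in the brain metastatic libraries. The lowest brain metastatic value was far above the highest parental value. The means were 1361 ± 173 and 4416 ± 411 (SD, n = 2 each), a log2 fold change of 1.70 ± 0.228 (SE; 3.25-fold, 95% interval 2.26 to 4.67; adjusted p = 0.00338). Its log2 fold change exceeded that of 95.3% of tested genes. The difference from the parental mean was 1.605 in BR-A and 1.80 in BR-B on the log2 scale. CDKN1A was called in all 13 alternative analyses, with the adjusted p nearest to the threshold, 0.0488, without P-A.

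CDKN1B encodes p27, the inhibitor that ubiquitination through SKP2 removes as cells enter S phase. Normalized counts were 1209.8 and 1263 in parental and 1335 and 1126 in brain metastatic cells, so the brain metastatic values lay on both sides of the parental ones. The log2 fold change was -0.01 ± 0.231 (SE, adjusted p = 0.979), with a 95% interval from -0.54 to 0.52. CDKN2C encodes the INK4 inhibitor p18. It measured 1084 and 1178 in parental and 1325 and 1209 in brain metastatic cells, a log2 fold change of 0.16 ± 0.227 (SE, adjusted p = 0.655, 95% interval -0.36 to 0.69). The libraries did not overlap, yet the difference was within the error of the fit.

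Levels of different genes were compared per length, as RPKM over the longest annotated transcript (reads scaled by transcript length and by library size). Of the summed level of the 3 CIP/KIP genes, CDKN1A took 50.2% and 52.6% in the parental libraries and 76.7% and 81.1% in the brain metastatic libraries. The sum itself was 41.5 and 46.5 in parental and 87.9 and 93.5 in brain metastatic libraries. The per-length level of CDKN1A was 1.20 and 1.38 times that of CDKN1B in the parental libraries and 3.62 and 4.90 times in the brain metastatic ones. With all annotated exons as the length, these ratios were 0.944 and 1.08 in parental and 2.85 and 3.85 in brain metastatic libraries. CDKN1C, which encodes the third CIP/KIP inhibitor, p57, measured 168 and 221 normalized counts in parental and 96.0 and 114 in brain metastatic cells (log2 fold change -0.87 ± 0.322 SE, adjusted p = 0.107). In the INK4 family only CDKN2C and CDKN2D, the p19 gene, had more than 1 read in any library. CDKN2D did not pass (log2 fold change -0.51 ± 0.361 SE, adjusted p = 0.368), with 768 and 1143 normalized counts in parental and 918 and 473 in brain metastatic libraries. Of the 7 CDK inhibitor genes, 5 were tested, 1 rose (20%, against 8.61% of all tested genes) and 0 fell. The gene that rose was CDKN1A, already counted above. Of the 5, 1 was higher and 1 (CDKN1C) lower at an unadjusted p below 0.05, against 2467 and 2123 of all 14424 tested genes. The median log2 fold change of the tested inhibitors was -0.01, with 0.11 in BR-A and -0.13 in BR-B.

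**Figure D2:**
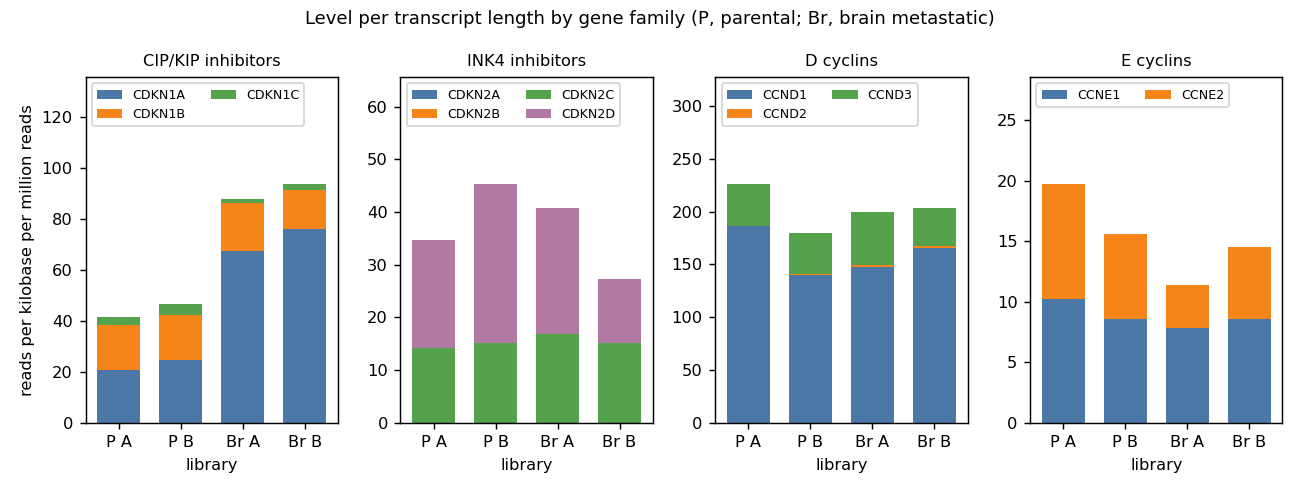
RPKM over the longest transcript (vertical axis, a different range in each panel) in each library, stacked by gene within 4 families. CDKN1A grows from about 50.2% of the CIP/KIP sum in P-A to 81.1% in BR-B, and CDKN2A and CDKN2B are at or next to 0 in the INK4 panel.

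CCND1, the cyclin that couples growth factor signals to CDK4 and CDK6, was the most abundant of the 9 genes per length in both lines. Its normalized counts were 21055 and 16151 in parental and 17113 and 19461 in brain metastatic cells. Both brain metastatic values fell inside the parental range, and the log2 fold change was -0.02 ± 0.237 (SE, adjusted p = 0.974, 95% interval -0.56 to 0.53). CCND3, another D cyclin, measured 2459 and 2482 in parental and 3249 and 2321 in brain metastatic cells. The brain metastatic libraries enclosed the parental pair (log2 fold change 0.15 ± 0.244 SE, adjusted p = 0.702, 95% interval -0.41 to 0.71). CCNE1, the cyclin partner of CDK2 at the G1 to S transition, measured 550.3 and 469 in parental and 430.2 and 480.0 in brain metastatic cells (log2 fold change -0.16 ± 0.255 SE, adjusted p = 0.701, 95% interval -0.75 to 0.43). These groups overlapped.

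CDK6 measured 6565 and 5189.6 in parental and 5568 and 7755 in brain metastatic cells (log2 fold change 0.17 ± 0.255 SE, adjusted p = 0.679, 95% interval -0.41 to 0.76). BR-A lay inside the parental range and BR-B above it. The 95% intervals of CDKN1B, CDKN2C, CCND1, CCND3, CCNE1, CDK6 and MDM2 all include 0. They extend to differences of up to 1.69 times (CDK6, upward) or to 0.596 times (CCNE1, downward). With 2 libraries a line, a change that lies inside the interval of a gene was therefore not excluded.

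**Figure D3:**
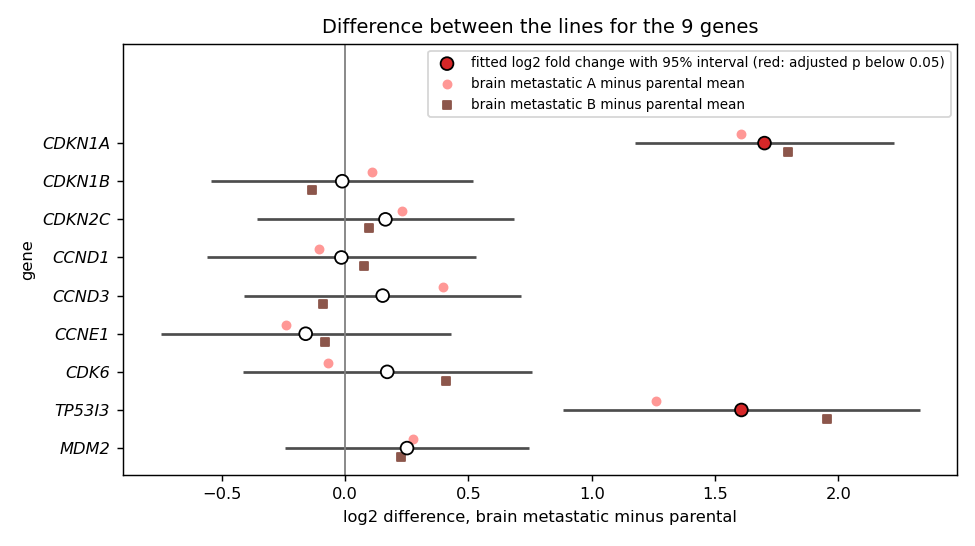
Fitted log2 fold change, brain metastatic minus parental (horizontal axis), with its 95% interval for each of the 9 genes, and the difference of each brain metastatic library from the parental mean as small points. Only the intervals of CDKN1A (1.18 to 2.22) and TP53I3 (0.88 to 2.33) lie clear of 0.

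Among the 13 G1 cyclin, CDK and CDK-activating genes, 1 rose (7.69%, against 8.61% of all tested genes), 0 fell and 12 did not pass. Their median log2 fold change was -0.17 (all tested genes, 0.01), with -0.11 in BR-A and -0.30 in BR-B. The gene that rose was CCND2, the D cyclin that is scarce in this line. It measured 64.8 and 67.9 in parental and 321 and 447 in brain metastatic cells (log2 fold change 2.50 ± 0.318 SE, adjusted p = 0.00284), and it was called in all 13 alternatives. Per length it still made up only 0.920% and 1.24% of the D cyclin sum in BR-A and BR-B, against 0.169% and 0.218% in the parental libraries. CCND1 made up 73.9% to 82.5% of that sum across the 4 libraries. CDK4, which shares D cyclins with CDK6, measured 2148 and 2351 in parental and 1604 and 993 in brain metastatic cells and did not pass (log2 fold change -0.83 ± 0.279 SE, adjusted p = 0.0831). The per-length ratio of CDK6 to CDK4 was 0.546 and 0.395 in the parental libraries and 0.621 and 1.40 in the brain metastatic ones. CCNE2, the second E cyclin gene, measured 826 and 625 in parental and 320 and 539 in brain metastatic cells and did not pass (log2 fold change -0.79 ± 0.321 SE, adjusted p = 0.136). Without BR-A, 4 genes of this list were called lower and without BR-B 1.

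The order of the 9 genes by level per length changed between the lines at CDKN1A and TP53I3. In parental cells it ran CCND1 (163), CCND3 (39.0), CDKN1A (22.6), CDK6 (19.1), CDKN1B (17.6), CDKN2C (14.7), CCNE1 (9.42), MDM2 (6.41) and TP53I3 (3.32), as means on that per-length scale. The ranges of CDKN1A and CDK6 overlapped, as did those of CDK6 and CDKN1B. In brain metastatic cells CDKN1A (71.6) stood above CCND3 (42.8), and TP53I3 (10.2) above CCNE1 (8.19) and MDM2 (7.43). There the ranges of CDK6 and CDKN1B, of CDKN1B and CDKN2C, and of TP53I3 and CCNE1 overlapped. With all annotated exons of a gene as its length in place of the longest transcript, CCND3 moved from the second to the fifth place in parental cells (16.1) and to the fourth in brain metastatic cells (17.7).

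TP53I3 measured 180.0 and 172 in parental and 423 and 683 in brain metastatic cells. Both brain metastatic libraries were above both parental ones, and BR-B was well above BR-A. The means were 176 ± 5.89 and 553 ± 185 (SD, n = 2 each), a log2 fold change of 1.61 ± 0.314 (SE; 3.05-fold, 95% interval 1.85 to 5.02; adjusted p = 0.0149). Against the parental mean the log2 difference was 1.26 in BR-A and 1.95 in BR-B. The interferon-stimulated list had medians of -0.45 in BR-A and 2.59 in BR-B, and the stress response list 0.17 and 0.99. Their part in the higher TP53I3 value of BR-B was not tested. Without BR-B, TP53I3 was still called, at a log2 fold change of 1.26. It was not called without P-A (1.64, adjusted p = 0.102) or without P-B (1.57, adjusted p = 0.133). Leaving out those libraries lowered the calls over all genes as well, which were 1242 higher and 837 lower with all libraries. In those fits the residual spread comes only from BR-A and BR-B. For TP53I3, BR-A minus BR-B was -0.69 on the log2 scale, and P-A minus P-B 0.07.

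MDM2 measured 2084 and 2204 in parental and 2593 and 2509 in brain metastatic cells. The libraries did not overlap, but the difference was small and did not pass (log2 fold change 0.25 ± 0.215 SE, adjusted p = 0.453, 95% interval -0.24 to 0.75). Among 21 tested regulators of p53, MDM2 included, 3 rose, 0 fell and 18 stayed above the threshold. Their median log2 fold change was 0.25, with 0.09 in BR-A and 0.42 in BR-B. At an unadjusted p below 0.05, 3 were higher and 0 lower, against 2467 and 2123 of all 14424 tested genes. The share called higher was 14.3%, against 8.61% of all tested genes, and edgeR called 2 members. PPP1R13L, which encodes the p53 inhibitor iASPP, rose by 1.58 ± 0.249 on the log2 scale (SE, adjusted p = 0.00638), from 939 ± 160 to 2800 ± 459 (SD, n = 2 each). TP53BP2, which encodes its relative ASPP2, an activator of p53, rose by 0.82 ± 0.231 (SE, adjusted p = 0.0499), from 2063 ± 369 to 3625 ± 73.4 (SD, n = 2 each). TP73, a p53 relative, was the remaining one, at 14 and 8 reads in the parental and 33 and 45 in the brain metastatic libraries. TP53BP2 lay at the threshold and was not called in 8 of 13 alternatives, where its adjusted p reached 0.426. Without P-A 1 member was called and without P-B 0. Without BR-A 6 were called.

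Other target genes of p53 were called in both directions. Of 42 tested targets, 5 rose, 4 fell and 33 did not pass (median log2 fold change 0.15). The 39 tested targets other than CDKN1A, TP53I3 and MDM2 had 3 higher and 4 lower (median 0.07, with -0.13 in BR-A and 0.20 in BR-B). Of those 39, 7.69% were called higher, against 8.61% of all tested genes, and 10.3% lower, against 5.80%. Beside CDKN1A and TP53I3, the genes that rose were DRAM1, a lysosomal regulator of autophagy, and the TRAIL receptor genes TNFRSF10B and TNFRSF10D. DRAM1 measured 984 and 1126 in parental and 3433 and 3116 in brain metastatic cells (log2 fold change 1.63 ± 0.224 SE, adjusted p = 0.00359). TNFRSF10B, the death receptor DR5, had a log2 fold change of 1.22 and TNFRSF10D, a decoy receptor, of 1.11. TP53I11 fell most, with 167 and 140 reads in the parental and 0 and 7 in the brain metastatic libraries (adjusted p = 0.00695). CMBL, a hydrolase gene, fell by 1.30 ± 0.251 on the log2 scale (SE, adjusted p = 0.0141). SAC3D1 fell by 1.07. BTG2, an antiproliferative gene below the level set for naming and chosen after its values were seen, fell from 72 and 64 reads in the parental libraries to 1 and 3 in the brain metastatic libraries (adjusted p = 0.00347).

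The p53 list also holds genes of apoptosis, of which the following were picked after their values were seen and, unlike TNFRSF10B, did not pass. BAX had a log2 fold change of -0.75 (adjusted p = 0.0846), PMAIP1, which encodes NOXA, 1.25 (adjusted p = 0.128) and BBC3, which encodes PUMA, 0.13 (adjusted p = 0.869). FAS, a death receptor gene, had a log2 fold change of 1.00 (adjusted p = 0.116) and APAF1, which encodes the apoptosome scaffold, 0.18 (adjusted p = 0.65). PMAIP1 measured 3527 in BR-A and 11593 in BR-B, against 2233 and 3258 in parental cells, which puts it 0.39 (BR-A) and 2.10 (BR-B) above the parental mean on the log2 scale. BR-B was the library with the high interferon-stimulated and stress response levels, whose part in this difference was not tested. The median of the p53 target list was -0.06 in BR-A and 0.22 in BR-B. Without BR-A 10 targets were called higher and 9 lower (23.8% and 21.4%, against 19.8% and 16.7% of all tested genes), and without BR-B 6 and 5 (14.3% and 11.9%, against 11.6% and 10.2%). Without P-A 1 was called higher and 0 lower, and without P-B 2 and 0. DESeq2 on the recovered reads called 8 higher and 6 lower.

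**Figure D4:**
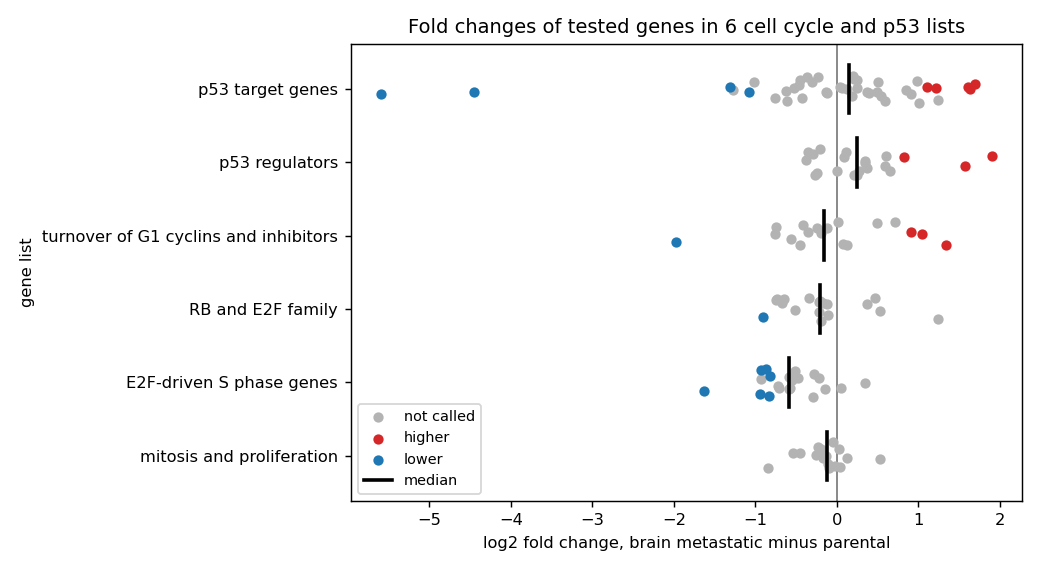
Log2 fold change, brain metastatic minus parental (horizontal axis), of each tested gene in 6 lists (vertical axis), called higher in red, called lower in blue and not called in grey, with the list median as a black bar. The p53 targets spread to both sides of 0, and the 6 called S phase genes all lie below 0, around a list median of -0.59.

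Of 18 tested genes for the turnover of G1 cyclins and inhibitors, 3 rose (16.7%, against 8.61% of all tested genes), 1 fell (5.56%, against 5.80%) and 14 did not pass. The list median was -0.16, with -0.03 in BR-A and -0.14 in BR-B. The 18 genes include subunits of the ubiquitin ligases that destroy these proteins. SKP2, the subunit that marks p27 and p21 for destruction, measured 3105 and 2632 in parental and 757 and 695 in brain metastatic cells. Both brain metastatic libraries were far below the parental ones, and SKP2 fell by 1.98 ± 0.229 on the log2 scale (SE, adjusted p = 0.00196), a call that held in all 13 alternatives. FBXW7, which targets cyclin E, rose from 545 ± 79.0 to 1383 ± 204 (SD, n = 2 each; a log2 fold change of 1.34 ± 0.252 SE, adjusted p = 0.0128). AMBRA1, which targets D cyclins, rose from 443 ± 114 to 904 ± 134 (SD, n = 2 each; a log2 fold change of 1.04 ± 0.282 SE, adjusted p = 0.0443). CUL4B, a cullin scaffold gene, rose by 0.91 ± 0.213 (SE, adjusted p = 0.0279). AMBRA1 was not called in 3 of 13 alternatives. The mRNA of the proteins these ligases target was higher for CDKN1A and CCND2 and was not called for CDKN1B, CCNE1, CCND1 or CCND3 (above). SKP2 was the only gene of the list called without P-A, and also without P-B. Without BR-A 3 were higher and 5 lower, and without BR-B 4 and 2.

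Downstream of the G1 kinases, 1 of 18 tested retinoblastoma and E2F family genes fell (5.56%, against 5.80% of all tested genes) and 0 rose. Their median log2 fold change was -0.21, with -0.25 in BR-A and -0.28 in BR-B. RBL2, which encodes the pocket protein p130, measured 1469 and 1535 in parental and 767 and 834 in brain metastatic cells (log2 fold change -0.91 ± 0.227 SE, adjusted p = 0.0349). RB1 did not pass (log2 fold change -0.22 ± 0.210 SE, adjusted p = 0.497). Of 21 S phase genes driven by E2F, 0 rose, 6 fell and 15 did not pass (median log2 fold change -0.59). At an unadjusted p below 0.05, 0 were higher and 13 lower, against 2467 and 2123 of all 14424 tested genes. The share called lower was 28.6%, against 5.80% of all tested genes. Their libraries were wholly lower in the brain metastatic line for 18 of 21 genes, against 29.7% of all tested genes. GINS2, a subunit of the replicative helicase, fell by 1.63 ± 0.308 on the log2 scale (SE, adjusted p = 0.013), from 1545 ± 290 to 511 ± 180 (SD, n = 2 each). POLA1, the DNA polymerase alpha subunit, fell by 0.94 ± 0.264 (SE, adjusted p = 0.0497), and GINS1, MCM7 and TYMS were among the others that fell. POLA1 lay at the threshold and was not called in 4 of 13 alternatives, and GINS1, MCM7 and TYMS in 3 each. The list median was -0.46 in BR-A and -0.71 in BR-B. Without either parental library 0 S phase genes were called. Without BR-A 11 fell and without BR-B 4, and with no filter on low genes 3. RBL2 was not called without P-A (adjusted p = 0.196), nor without P-B (adjusted p = 0.304).

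Of 16 genes of mitosis and proliferation, limma called 0 (median log2 fold change -0.12, with -0.17 in BR-A and -0.08 in BR-B). At an unadjusted p below 0.05, 1 was lower and 0 were higher, against 2123 lower and 2467 higher of all 14424 tested genes. DESeq2 called 1 lower and edgeR 0. TOP2A, the most abundant, measured 37681 and 29471 in parental and 30263 and 31655 in brain metastatic cells (adjusted p = 0.785). Transcription factors that act on CDKN1A, CDKN1B or the D cyclin genes gave 7 called higher and 0 lower out of 24 (median log2 fold change 0.54, with 0.54 in BR-A and 0.49 in BR-B). The share called higher was 29.2%, against 8.61% of all tested genes. EGR1, an immediate early factor, rose by 1.98 ± 0.312 (SE, adjusted p = 0.00628), from 243 ± 80.4 to 941 ± 160.2 (SD, n = 2 each). TFAP2A, an activator of CDKN1A, rose by 1.55 ± 0.261 (SE, adjusted p = 0.00823), from 207 ± 11.4 to 608 ± 48.0 (SD, n = 2 each). MYC, a repressor of CDKN1A, did not pass (log2 fold change 0.57, adjusted p = 0.149). Without P-A 0 of these factors were called higher, and without P-B 1.

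The genes whose pattern over the 4 libraries was closest to those of the members with the largest differences were named by the distance between centred log2 values. For CDKN1A they were MANSC1 (distance 0.092), LGR4 (0.104), a receptor for R-spondins, and PELI1 (0.111), a ubiquitin ligase gene. LGR4 measured 933 and 1150.4 in parental and 3426 and 3763 in brain metastatic cells. For TP53I3 they were LGALS8 (0.097), a galectin gene, ZSCAN30 and TBCK (0.142), each also highest in BR-B. For MDM2 they were CDK8 (0.018), PPTC7 (0.018) and STX16 (0.027), all with log2 fold changes near 0.25 that did not pass. With only 4 libraries in 2 groups and 9484 genes to choose from, such closeness is a description.

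Reads of overlapping genes cannot be told apart where strand was not used in counting, and the strand setting is not given in the sources used here. By the GENCODE gene models, CCND1 shares 497 bases, 10.3% of its exon length, with LTO1 on the opposite strand, which measured 579 to 776 normalized counts, far below CCND1. TP53I3 shares 80 bases (3.46%) with FAM228B, which measured 76.8 and 122 in parental and 94.1 and 111 in brain metastatic cells. MDM2 shares 785 bases (5.91%) with AC025423.4 on the opposite strand and 439 bases (3.30%) with AC025423.2 on its own strand, which even stranded counting could not separate and neither of which was analysed here. It also shares 133 bases (1.00%) with the carboxypeptidase gene CPM, which measured 125 and 172 in parental and 404 and 287 in brain metastatic cells. CDKN1A shares 146 bases (4.79%) with DINOL, a noncoding RNA gene that was not analysed here. CCND3 and CDK6 share 0.414% and 0.661% of their exon length with genes not analysed here. CDKN1B, CDKN2C and CCNE1 shared no exon bases with another gene.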

How the data were processed

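Gene-level RNA-seq values of 2 parental and 2 brain metastatic libraries were used. The authors deposited a normalized read signal per gene. GRCh37 stands as the build, and DESeq2, featureCounts and HISAT2 as tools, per the submitters' processing notes, which give no versions or order. The sources used here do not give the annotation, strand setting or gene filter. Every column of the deposited signal consisted of whole multiples of 1 step (100% of values within 0.01 reads), so whole reads were recovered by division. A read was worth 0.0325 to 0.0387 CPM. Of 15346 rows, 67 unnamed ones (0.031% to 0.0369% of reads) were left out. Columns name only the line, so P-A, P-B, BR-A and BR-B follow column order.

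Genes were kept by filterByExpr on recovered reads (minimum count 10, minimum total 15), leaving 14424. The lines were compared with limma-trend on log2(value + 1), which understates changes of low genes, with Benjamini-Hochberg adjustment over all tested genes and a threshold of 0.05. With 2 libraries against 2, an exact permutation test cannot go below p = 0.333, so none was made. edgeR's quasi-likelihood test, DESeq2 and limma-voom on recovered reads, 2 other scalings, 2 other pseudocounts, 2 other filters and leaving out each library were the 13 alternatives. edgeR on recovered reads called 1293 genes higher and 935 lower. The limma step was tested on simulated data of 14424 genes and recovered 82% of 2-fold and 99% of 4-fold changes. Whether these rates hold at the spread of the real libraries, where BR-B stood apart, was not tested. In the real libraries FAS, at a log2 fold change of 1.00 ± 0.382 (SE), was not called.

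Lengths came from GENCODE 29 by symbol (15227 of 15279 named rows matched), promoter windows from RefSeq (GRCh38.p14, by symbol, 8 of 9 genes matched). The genes described and the 11 further lists were chosen with earlier results of these data known, and entries without a row were not analysed here. Some list members are counted but not reported here by name. All 9 genes are named. The 2 strongest called increases and the 2 strongest called decreases of a list are named where the higher line reached 5 CPM, or its most abundant gene where none was called. Other genes given with values (CDKN1C, CDKN2D, CDK4, CCNE2, RB1, MYC, BAX, BBC3, PMAIP1, CUL4B, TP73, TNFRSF10B, TNFRSF10D, SAC3D1, FAS, APAF1, HSPA5, KDR and the cell type markers) were chosen for their role or to complete a count, after their values were seen. Nearest patterns were sought among genes of at least 10 CPM. Of the interferon-stimulated list, 1 of 12 tested members was called higher (IRF7, 8.33%). Of the stress response list, 2 of 13 were called higher (CHAC1 and VLDLR, 15.4%). The share of all tested genes called higher was 8.61%. Software was Python 3.11.15 and R 4.3.3 with DESeq2 1.42.0, edgeR 4.0.16 and limma 3.58.1.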

Additional observations from a re-analysis of the deposited data

How the results depend on the processing

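CDKN1A was called higher in each of the 13 alternatives (log2 fold change 1.57 to 1.83), and TP53I3 in 11 of 13. TP53I3 ranged from 1.26 to 1.95 over the analyses that left out a library, with adjusted p up to 0.133. The other 7 genes were called in none of the alternatives. Of those, the sign of the log2 fold change reversed without a library for CDKN1B (0.02 to 0.11, against -0.01), CCND1 (0.08 to 0.18, against -0.02), CCND3 (-0.0903, against 0.15) and CDK6 (-0.0681, against 0.17), and the cause was not tested. Over those fits CDKN1B ranged from -0.13 to 0.11, CCND1 from -0.21 to 0.18, CCND3 from -0.09 to 0.39 and CDK6 from -0.07 to 0.41. The number of the 9 genes called higher was 2 throughout, except for 1 without either parental library. Over all genes, calls with a library left out ranged from 310 to 2855 higher and from 74 to 2402 lower, and DESeq2 called 1287 lower. Leaving out either parental library gave fewer calls, and either brain metastatic library more. A fit with 1 library left in a line takes its residual spread only from the pair of the other line. The part of this in the number of calls was not tested. Scaling by total reads moved the median of all genes to -0.02 and changed no call of the 9. No paired analysis was possible because the columns of the deposited table carry no replicate numbers. Depth limits CDKN2A, CDKN2B, TP73, TP53I11 and BTG2, which rest on few reads, and the number of libraries limits the rest.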
